A study of Mus musculus with 6 samples.

Results

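The 10 core clock genes Clock, Arntl, Arntl2, Npas2, Per1, Per2, Per3, Cry1, Nr1d1 and Dbp were taken by name from the 26814 gene symbols of an RNA-Seq count table of mouse lip. The table holds 6 libraries from the top lip of adult female mice on the C57BL/6J strain, 3 wild type (WT1, WT2 and WT3) and 3 labelled Gtf2ird1 KO (KO1, KO2 and KO3). The KO mice carried the targeted Gtf2ird1 tm1Hrd allele, the labels name no treatment in either group, and each library came from 1 mouse. The question put to these genes was whether the arms of the clock that peak at opposite times of day differed in opposite directions between the genotypes, as a shift in the phase of the clock could give. The hour at which the lips were taken is not given in the sources used here.

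The circadian clock is a loop of transcription that runs in nearly every cell of the body. CLOCK, or its relative NPAS2, pairs with BMAL1, the product of Arntl, and the pair switches on genes that carry E-box elements, among them the Per and Cry genes, Nr1d1 and Dbp. PER and CRY proteins then hold CLOCK and BMAL1 back, and NR1D1 (REV-ERB alpha) represses Arntl and Npas2 through ROR elements, where the ROR proteins act in the opposite sense. DBP, with its relatives TEF and HLF, acts at D-box elements, where NFIL3 opposes it. In peripheral tissues of mice kept in light and dark, Arntl, Npas2 and Clock transcripts peak around the end of the night, Nr1d1 during the day, Dbp somewhat later, and the Per transcripts towards dusk and the early night. Skin, which makes up much of the lip, holds such clocks in keratinocytes, fibroblasts and hair follicles.

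Promoters of 9 of the 10 genes were found among RefSeq windows of GRCm38.p6 that run from 250 bases before to 50 bases after a start of transcription. Stretches are shown for Per1, Cry1 and Per3, as examples of repressors that held letters of a clock element before the start, with the one match in Arntl, a driver of the loop, beside them. Capitals mark the E-box CACGTG in Per1 and Cry1, the E'-box CACGTT in Cry1 (read there from the other strand, as AACGTG), the D-box TTATGTAA in Per3 and the ROR element core TAGGTCA in Arntl. Each stretch reads 5′ to 3′ on the strand of its gene.
Per1, chr11:69098699-69098948, plus strand: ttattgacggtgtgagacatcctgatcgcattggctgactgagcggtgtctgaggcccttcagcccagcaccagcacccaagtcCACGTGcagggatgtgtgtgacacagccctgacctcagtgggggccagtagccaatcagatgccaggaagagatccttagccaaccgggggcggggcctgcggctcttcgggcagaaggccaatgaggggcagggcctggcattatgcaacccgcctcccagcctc
Cry1, chr10:85185055-85185304, minus strand: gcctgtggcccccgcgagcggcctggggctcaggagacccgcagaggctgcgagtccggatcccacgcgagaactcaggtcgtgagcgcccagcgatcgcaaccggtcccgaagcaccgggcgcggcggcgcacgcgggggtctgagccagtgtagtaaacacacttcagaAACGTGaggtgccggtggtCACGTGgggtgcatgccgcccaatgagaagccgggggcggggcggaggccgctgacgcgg
Per3, chr4:151044666-151044915, minus strand: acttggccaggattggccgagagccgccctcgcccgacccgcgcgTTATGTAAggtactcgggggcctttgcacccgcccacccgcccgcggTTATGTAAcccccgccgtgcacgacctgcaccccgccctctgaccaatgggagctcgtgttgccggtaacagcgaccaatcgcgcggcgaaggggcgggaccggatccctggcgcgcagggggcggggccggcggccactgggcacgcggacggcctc
Arntl, chr7:113207529-113207558, plus strand: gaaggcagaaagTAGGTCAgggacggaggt
The E-box of Per1 begins 166 bases before the start, those of Cry1 at 60 (E-box) and 79 bases (E'-box) before it, and both D-boxes of Per3 at 205 and 158 bases before it. The Arntl match begins at base 31 of 1 of its 2 transcript starts, and the second Per1 window held no match. Nr1d1, whose stretch is not shown, held an E'-box 28 bases before its start. On both strands, the E-box occurred in 7.15% of all 32851 promoter windows of this length, the E'-box in 4.68%, TTATGTAA in 0.938% and TAGGTCA in 2.61%. The windows of Clock, Arntl2, Npas2 and Dbp held none of these letters, nor the other D-box TTACGTAA, the other ROR core TGGGTCA or the cAMP response element TGACGTCA. The only Arntl2 window (chr6:146805280-146805579) lies inside the annotated gene, which begins at 146796055. The bases around that annotated beginning were therefore not searched. A match of letters is a description and does not show binding.

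Levels are counts as CPM (a gene's share of the library's counts, scaled by TMM factors), and a log2 fold change sets KO against WT by label, with its standard error (SE). Adjusted p-values are those of edgeR's quasi-likelihood test with Benjamini-Hochberg adjustment over the 15009 genes that had at least 1 CPM in at least 3 libraries, and a gene was called at an adjusted p under 0.05. All 10 clock genes passed this filter. Total counts ran from 20164081 in KO1 to 29491767 in KO2, so that 3 counts, the limit that a count of 0 allows, stood for 0.0985 to 0.153 CPM, which covers counting error only. Gtf2ird1 itself was higher in the libraries labelled KO, at 166, 162 and 144 CPM in KO1, KO2 and KO3 against 78.0, 70.0 and 70.5 in WT1, WT2 and WT3 (log2 fold change 1.11, SE 0.13, adjusted p = 0.0018). A count over the whole gene does not show whether its targeted part was read, so this level cannot decide on the label. The paper states that tail biopsies were taken to check the genotypes. It also cites work in which GTF2IRD1 regulates its own transcription, and the part of this here was not tested. Every direction is given for libraries by their label. Markers of epidermis, hair follicle, dermis and skeletal muscle were present in each library.

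Of the 10 core clock genes, Clock was the 1 called higher in KO and 0 were called lower. Over all tested genes, 4.38% were called higher and 2.09% lower. By unadjusted p under 0.05, 2 were higher, Clock and Arntl2, and 1 lower, Cry1. Of all 15009 tested genes, 4439 had an unadjusted p under 0.05, in either direction. Of the core clock genes, edgeR's exact test, DESeq2 and limma-voom called 0 lower as well. The log2 fold change was positive in 3 and negative in 7 of the core clock genes, with a median of -0.15. Over all tested genes the median was -0.02, and 48.0% were positive. Only in Clock and Arntl2 did the 3 KO values lie on one side of the 3 WT values, 2 of 10, while 31.5% of all tested genes were separated in this way. The other 8 overlapped between the genotypes.

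**Figure D1:**
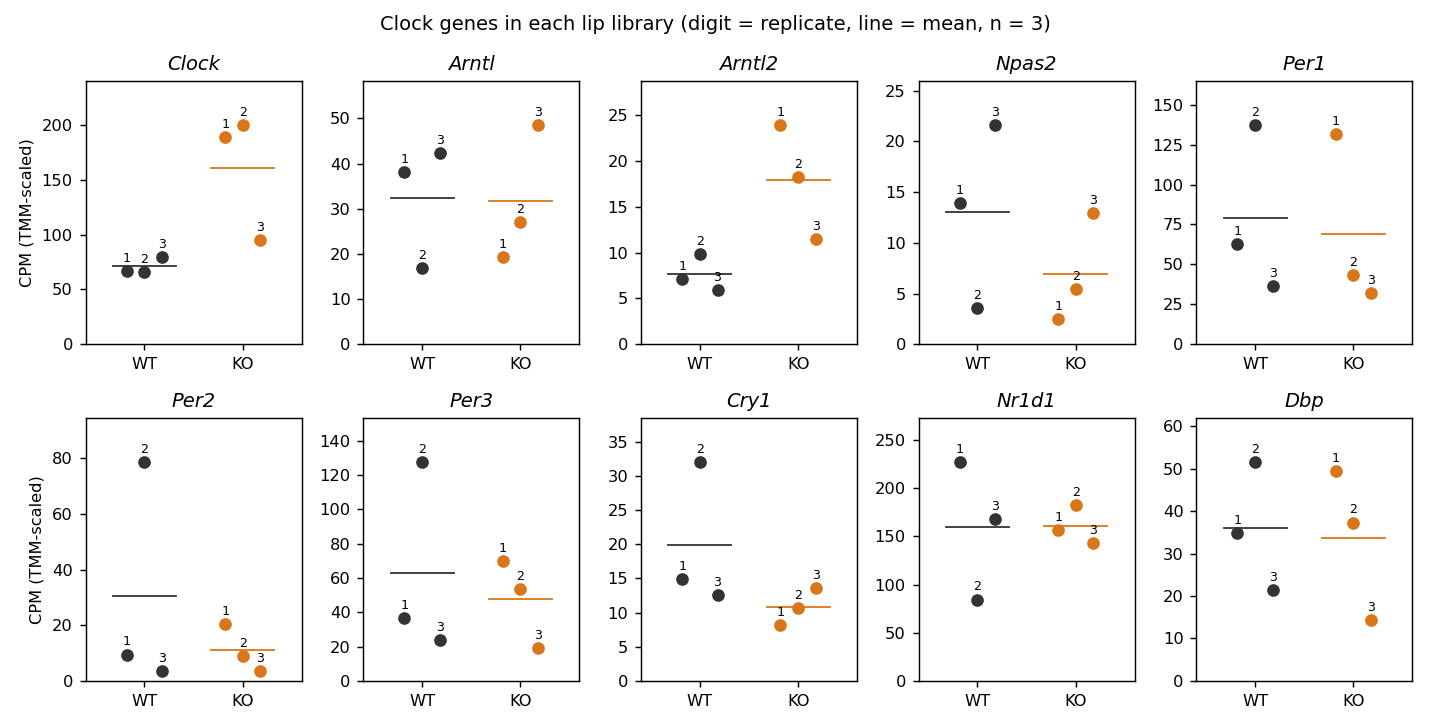
TMM-scaled CPM (vertical axes, each from 0) of the 10 core clock genes in the 3 WT libraries (grey) and the 3 libraries labelled KO (orange), with the replicate number above each point and the group mean as a line. The KO points lie above all WT points for Clock and Arntl2, and in the other 8 genes the groups overlap.

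The partners that drive the loop had fold changes of different sign. Clock, which encodes the subunit that pairs with BMAL1, held 67.3 CPM in WT1, 66.4 in WT2 and 80.0 in WT3, and 188.9 in KO1, 200.3 in KO2 and 94.9 in KO3. KO1 and KO2 were far above every WT library and KO3 was just above the highest of them. The means were 71.2 ± 7.64 CPM for WT and 161 ± 57.8 for KO (SD, n = 3 each), and Clock was higher in KO by a log2 fold change of 1.18 (SE 0.27, adjusted p = 0.0422), or 2.27-fold. The exact test also called it (adjusted p = 0.000413), and limma-voom did not (adjusted p = 0.0558). With any single library removed the fold change stayed between 1.05 and 1.46, but Clock was called only without KO3 (adjusted p = 0.00025). That fit called 33% of all its 14802 tested genes, against 6.47% in the fit of all 6 libraries. Without any of the other 5 libraries the adjusted p of Clock lay between 0.0933 and 0.165. Clock (GRCm38, chr5:76209868-76304792, minus strand) spans the gene models Gm43658 and Ube2n-ps1 on its own strand in the annotation used.

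Arntl2 encodes BMAL2, a relative of BMAL1 that can also pair with CLOCK. It lies at chr6:146796055-146833529 (plus strand) and held 7.13 CPM in WT1, 9.88 in WT2 and 5.92 in WT3 against 23.9 in KO1, 18.2 in KO2 and 11.5 in KO3. Every KO library was above every WT library, with KO3 again nearest to them. The log2 fold change of 1.23 (SE 0.30) was as large as that of Clock and missed the threshold (adjusted p = 0.0515). It passed in edgeR's exact test, which the study's methods name (adjusted p = 0.00109) and which called 7.76% of all tested genes higher. It also passed in DESeq2 (adjusted p = 0.00154), which called 9.5% higher. The quasi-likelihood test without KO3 called it as well (adjusted p = 0.00235), together with 33% of all tested genes in either direction. Clock and Arntl2 stand in a list of transcription factors that the study chose from these same samples, so that their separation is not independent evidence.

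Arntl, the gene of BMAL1, did not share this pattern. Its level was 38.1 CPM in WT1, 16.8 in WT2 and 42.3 in WT3, and 19.3 in KO1, 27.0 in KO2 and 48.6 in KO3. The groups overlapped over almost their whole range, with WT2 and KO1 low and WT3 and KO3 high (log2 fold change -0.04, SE 0.41, adjusted p = 0.961). The Clock to Arntl ratio of counts was 1.76, 3.95 and 1.89 in WT1, WT2 and WT3 and 9.79, 7.41 and 1.95 in KO1, KO2 and KO3, so that KO3 fell inside the WT range. Arntl lies at chr7:113207465-113314126, where Gm45355 overlaps it on the opposite strand, and whether counting used the strand is not stated.

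Npas2, whose product can replace CLOCK, had 13.9 CPM in WT1, 3.61 in WT2 and 21.6 in WT3, and 2.45 in KO1, 5.45 in KO2 and 12.9 in KO3. The level was low in WT2 and KO1 and high in WT3 and KO3, as Arntl was, with a 6.00-fold range within WT and a 5.27-fold range within KO. The genotypes overlapped (log2 fold change -0.91, SE 0.69, adjusted p = 0.401). Npas2 lies at chr1:39193731-39363236 (plus strand). Clock therefore had a positive, Arntl a near zero and Npas2 a negative fold change, with Clock alone called.

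Per2, a repressor of CLOCK and BMAL1, had the widest range of the loop within a genotype. Its level was 9.49 CPM in WT1, 78.8 in WT2 and 3.64 in WT3, and 20.5 in KO1, 8.86 in KO2 and 3.70 in KO3. WT2 alone was 21.7-fold above WT3, while the KO libraries lay within the WT range (log2 fold change -1.48, SE 1.04, adjusted p = 0.365). Per3, the third of the Period genes, had 36.8, 128 and 23.8 CPM in WT1, WT2 and WT3 and 69.9, 53.3 and 19.4 in KO1, KO2 and KO3. WT2 and KO1 were again the highest of their groups and WT3 and KO3 the lowest (log2 fold change -0.40, SE 0.65, adjusted p = 0.702). Per2 lies at chr1:91415982-91459324 and Per3 at chr4:151003652-151044665, both on the minus strand. The annotated span of Camta1 overlaps Per3 on its strand, and Camta1 had a log2 fold change of -0.02 (adjusted p = 0.958).

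Per1, which besides the clock answers to glucocorticoids and to cAMP signalling, stood at 63.0 CPM in WT1, 137 in WT2 and 36.5 in WT3, and at 131 in KO1, 43.4 in KO2 and 31.8 in KO3. The high libraries WT2 and KO1 were close to each other, as were the low libraries WT3 and KO3 (log2 fold change -0.20, SE 0.60, adjusted p = 0.847). Cry1, the repressor whose transcript peaks later than those of the Per genes, had 14.96 CPM in WT1, 32.1 in WT2 and 12.6 in WT3, and 8.17 in KO1, 10.6 in KO2 and 13.7 in KO3. The highest library was WT2, as for the Per genes, but the lowest was KO1, and the groups overlapped only through KO3 and WT3 (log2 fold change -0.88, SE 0.36, unadjusted p = 0.042 and adjusted p = 0.154 in edgeR's quasi-likelihood test). Per1 lies at chr11:69095217-69109960 (plus strand) and Cry1 at chr10:85131700-85185064 (minus strand).

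Nr1d1 and Dbp, direct outputs of CLOCK and BMAL1, had fold changes near 0 but ranged widely between the WT libraries. Nr1d1, which encodes the repressor of Arntl, had 228 CPM in WT1, 84.5 in WT2 and 168 in WT3, and 157 in KO1, 183 in KO2 and 143 in KO3. WT2 was the lowest of all 6 libraries, and the KO libraries stayed within a 1.28-fold range (log2 fold change 0.01, SE 0.31, adjusted p = 0.987). Dbp, an activator at D-boxes, had 35.0 CPM in WT1, 51.7 in WT2 and 21.4 in WT3, and 49.4 in KO1, 37.3 in KO2 and 14.3 in KO3. The libraries stood in the order of Per3, with WT2 and KO1 on top and WT3 and KO3 at the bottom (log2 fold change -0.10, SE 0.45, adjusted p = 0.901). On the opposite strand, Thra overlaps Nr1d1 (chr11:98767932-98775333, minus strand) and Sphk2 overlaps Dbp (chr7:45705088-45710203, plus strand). Thra (log2 fold change -0.48, adjusted p = 0.166) and Sphk2 (-0.16, adjusted p = 0.623) did not pass the test.

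Per kilobase of exon, Nr1d1 was the most abundant of the 10 at 52.0 ± 23.4 CPM in WT and 52.4 ± 6.54 in KO (SD, n = 3). Per1 (14.0 ± 9.28) and Dbp (12.04 ± 5.07) followed in WT, and in KO Per1 (12.2 ± 9.67), Clock (11.8 ± 4.21) and Dbp (11.3 ± 5.96) lay within each other's spread. Arntl2 was lowest in WT at 1.34 ± 0.36 CPM per kilobase, and Npas2 in KO at 1.45 ± 1.13.

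**Figure D2:**
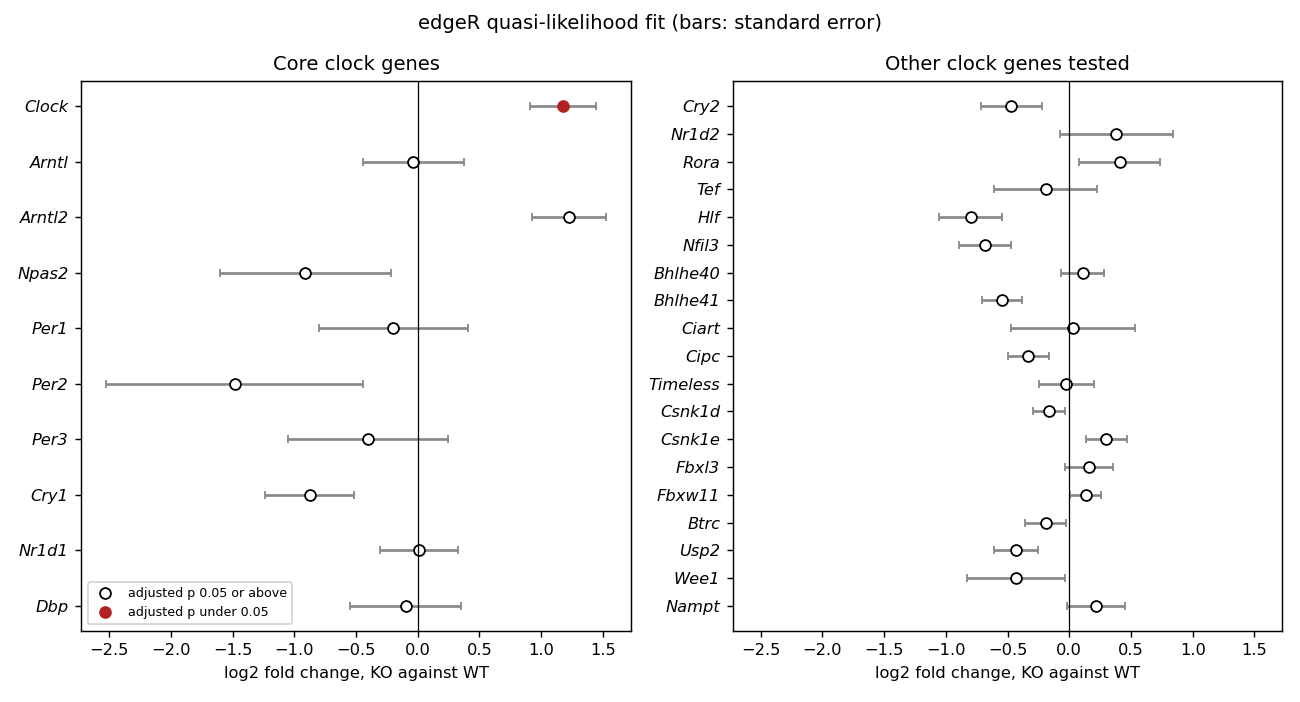
Log2 fold change of the libraries labelled KO against WT (horizontal axes) with SE as bars, for the 10 core clock genes (left) and the 19 tested other clock genes (right), with called genes filled. Clock is the 1 filled point, and Per2 has the widest bar.

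To see whether the arms of the loop moved apart, the mean log2 CPM of Arntl, Npas2 and Clock, which peak around the end of the night, was set against that of Nr1d1, Dbp, Per1, Per2 and Per3, which peak from the day to the early night. A difference of phase between the genotypes could move these means in opposite directions. The night group had a mean of 4.81 ± 0.72 in WT and 4.88 ± 0.45 in KO, and the day group 5.56 ± 0.90 in WT and 5.32 ± 0.83 in KO (log2 CPM, SD, n = 3 each). The night group minus the day group was -0.44 in WT1, -2.495 in WT2 and 0.69 in WT3, and -1.70 in KO1, -0.46 in KO2 and 0.85 in KO3. Each genotype thus held 1 library far on the side of the day group, 1 between and 1 on the side of the night group. The difference between the means of the genotypes, 0.31, was smaller than the SD within either (1.62 in WT and 1.27 in KO). From the fitted fold changes the night group exceeded the day group by 0.51 on the log2 scale, a value that depended on single libraries: it was -0.55 without WT2, -0.12 without KO3, 1.11 without WT3 and 1.17 without KO1. In mean log2 CPM, Arntl and Npas2 alone against the 3 Per genes differed between the genotypes by -0.07, where the whole groups differed by 0.31. The loss of the positive sign without Clock, Nr1d1 and Dbp holds for mean log2 CPM only. The fitted fold changes were -0.04 for Arntl and -0.91 for Npas2, and -0.20, -1.48 and -0.40 for Per1, Per2 and Per3. No test was made on these means, since the genes were chosen with results of these data known.

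Opposite movement of the arms was seen between libraries of the same genotype. Among the WT libraries, WT2 held the most Per1, Per2, Per3 and Dbp and the least Arntl, Npas2 and Clock, and WT3 held the least of the first 4 genes and the most of the latter 3. KO1 and KO3 stood in the same relation for Per1, Per2, Per3, Dbp, Arntl and Npas2, but Clock in KO1 was 188.9 CPM, above the 94.9 CPM of KO3. The ratio of Per2 to Npas2 counts within a library, which does not depend on scaling, was 0.682 in WT1, 21.9 in WT2 and 0.168 in WT3, and 8.35 in KO1, 1.63 in KO2 and 0.286 in KO3. Sorted by this ratio the libraries ran WT2, KO1, KO2, WT1, KO3 and WT3, so that the genotypes overlapped.

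**Figure D3:**
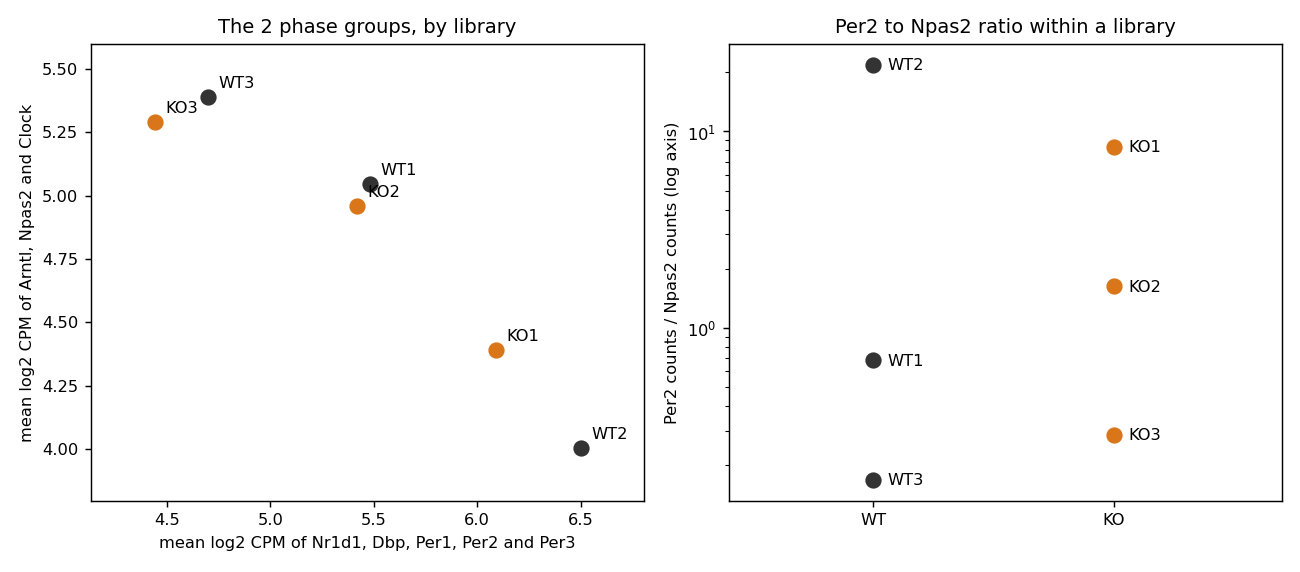
Left, mean log2 CPM of the day group (horizontal) and of the night group (vertical) in each library. Right, the ratio of Per2 to Npas2 counts in each library on a log axis. WT points are grey and KO points orange, and both genotypes spread along the same falling line from WT3 and KO3 to KO1 and WT2.

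Nr1d1 and Cry1 did not follow this order. Within WT, Nr1d1 was lowest in WT2, where the Per genes were highest, and the ratio of Per2 to Nr1d1 counts was 0.0417, 0.933 and 0.0216 in WT1, WT2 and WT3 against 0.130, 0.0484 and 0.0258 in KO1, KO2 and KO3. WT2 therefore combined high Per transcripts and Cry1 with low Nr1d1, while KO1 combined high Per1 and Dbp with Nr1d1 in the middle of its group and the lowest Cry1 of all libraries. In the steps of the cycle given as background, Nr1d1 precedes Dbp and the Per genes, and Cry1 follows them.

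The spread between libraries of one genotype was wide for these genes. The SD of log2 CPM within WT was 2.26 for Per2, the fifth highest of the 15009 tested genes, 1.33 for Npas2 (rank 24), 1.26 for Per3 (rank 29) and 0.96 for Per1 (rank 72). Over all tested genes the median SD was 0.20 in WT and 0.24 in KO, and over the 10 clock genes it was 0.73 and 0.80. In WT, 8 of the 10 lay in the highest 5% of tested genes, all but Clock (SD 0.15) and Arntl2 (SD 0.37), and in KO 5 did, Per2, Npas2, Per1, Per3 and Dbp. Nr1d1 had one of the narrower spreads in KO, at 0.18 (rank 9619). Clock was narrow in WT and wider in KO (SD 0.60), and Arntl2, Per1 and Dbp were also wider in KO than in WT.

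**Figure D4:**
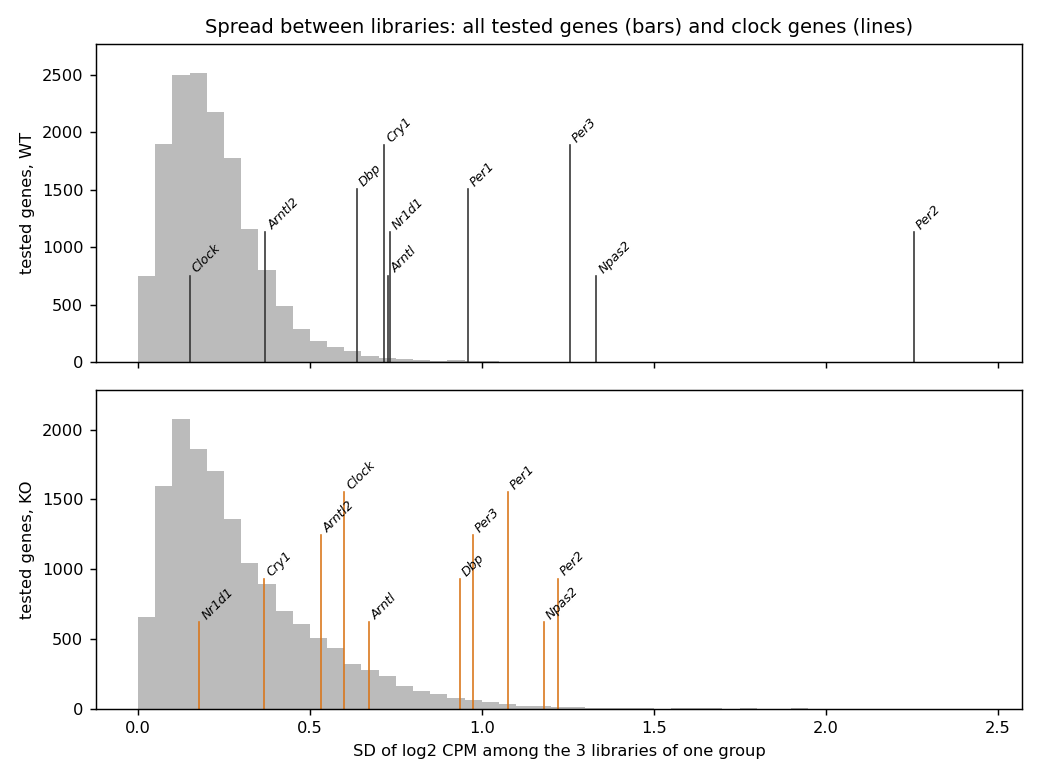
SD of log2 CPM among the 3 libraries of a group (horizontal axes) for all tested genes (bars, number of genes) and for the 10 core clock genes (lines, whose heights have no meaning), WT above and KO below. Per2 lies farthest out in both groups, while Clock in WT and Nr1d1 in KO lie inside the bulk of genes.

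A wider list of 21 clock genes, made of other receptors, output factors, kinases and ligase subunits of the loop, was examined in the same fit. Of these, 19 were tested, and Rorb and Fbxl21 fell below the filter, at 0.59 to 1.03 and 0.46 to 0.98 CPM. The quasi-likelihood test called 0 of them in either direction, with 8 positive and 11 negative log2 fold changes and a median of -0.16. By unadjusted p under 0.05, 4 were lower and 0 higher, where 4439 of all 15009 tested genes passed in either direction. The exact test called 2 lower, where it called 7.15% of all tested genes lower, DESeq2 called 3 lower against 7.61% of all, limma-voom called 0, and each of these tools called 0 higher. Hlf, Nfil3 and Bhlhe41 did not overlap between the genotypes, 3 of 19, where 31.5% of all tested genes did not. Rora, an activator at the elements where NR1D1 represses, had a log2 fold change of 0.41 (SE 0.32, adjusted p = 0.423).

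Of the other outputs of the loop, Ciart, Tef and Nr1d2 kept the order of the Per genes within each genotype. Ciart, a repressor of CLOCK and BMAL1 whose promoter window held 3 E-boxes and which the table lists under its older symbol Gm129, had 9.24 CPM in WT1, 17.6 in WT2 and 6.19 in WT3, and 17.8 in KO1, 11.3 in KO2 and 4.66 in KO3. Tef, which acts at D-boxes as Dbp does, had 184, 323 and 117 CPM in WT1, WT2 and WT3 and 243, 205 and 97.9 in KO1, KO2 and KO3. Nr1d2, the relative of Nr1d1, had 70.0, 117 and 49.0 CPM in the WT and 146, 120 and 42.0 in the KO libraries, in the same order. In all of these genes WT2 and KO1 were the highest and WT3 and KO3 the lowest of their groups, and the fold changes were 0.03 for Ciart (adjusted p = 0.972), -0.19 for Tef (adjusted p = 0.780) and 0.38 for Nr1d2 (adjusted p = 0.602). Cry2, the relative of Cry1, had 51.6, 69.2 and 39.5 CPM in the WT and 49.6, 36.0 and 30.4 in the KO libraries (-0.47, adjusted p = 0.240).

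Hlf and Nfil3, which act in opposite senses at D-boxes, both had negative fold changes. Hlf had 55.2, 84.4 and 44.0 CPM in WT1, WT2 and WT3 and 41.5, 36.3 and 27.7 in KO1, KO2 and KO3 (log2 fold change -0.80, SE 0.26, adjusted p = 0.0925). Nfil3 had 37.6, 34.5 and 36.8 CPM in the WT and 17.6, 19.95 and 30.3 in the KO libraries (log2 fold change -0.68, SE 0.21, adjusted p = 0.0855). Neither gene overlapped between the genotypes, and the quasi-likelihood test called neither. The exact test called both lower (adjusted p = 0.0200 for Hlf and 0.0320 for Nfil3), as did DESeq2 (0.0388 and 0.0371), and limma-voom called neither (0.103 and 0.0727).

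**Figure D5:**
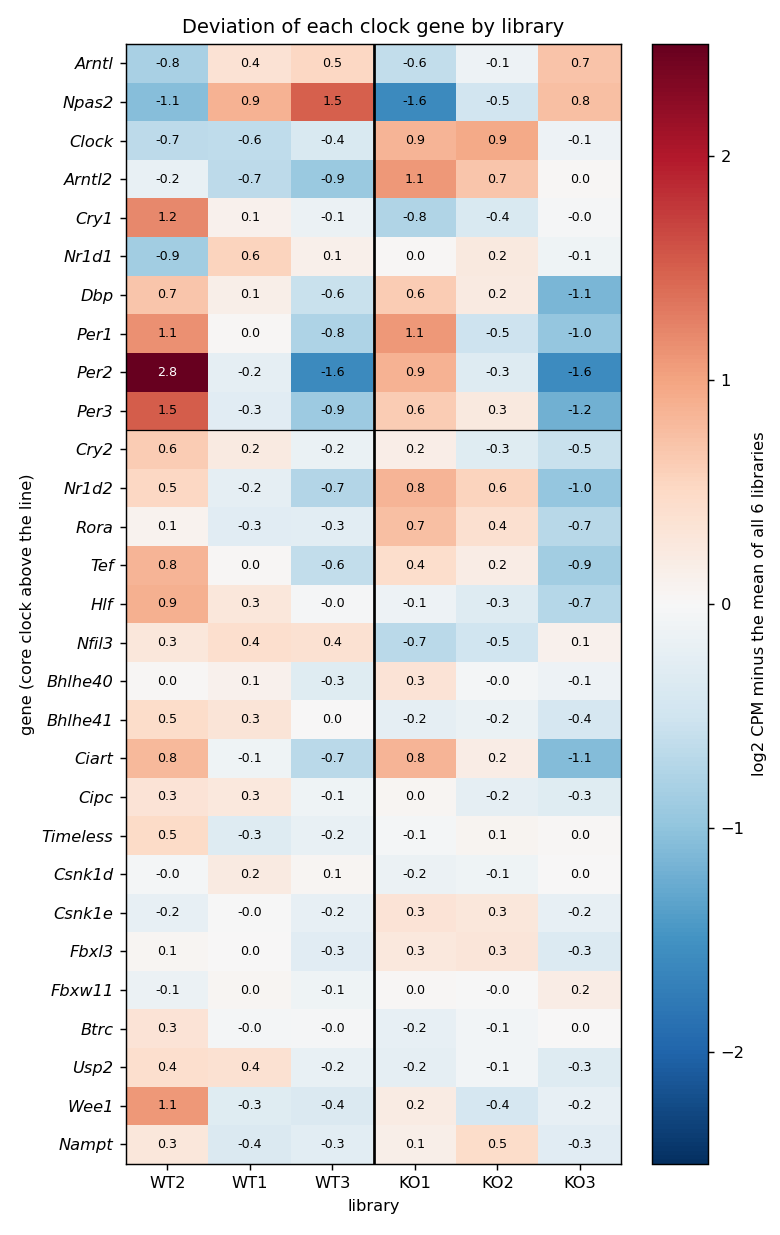
Log2 CPM of each clock gene in each library minus its mean over all 6 libraries (colour and printed value), with the core clock above the thin line and the wider list below it, and WT left and KO right of the thick line. Within each genotype the columns run from high to low for the Per genes, Dbp, Tef, Nr1d2 and Ciart, and from low to high for Arntl and Npas2.

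The genes most like Dbp and Arntl over the 6 libraries were sought among 12023 genes with a mean of at least 5 CPM, by Pearson correlation of log2 CPM. For Dbp they were Stx1a (r = 0.999), Ptprv (0.995) and Metap1d (0.994), with Ciart at rank 25 (0.980), Tef at rank 34 (0.974) and Nr1d2 at rank 126 (0.933). For Arntl they were Cox18 (0.996), Ints5 (0.994) and Ube2s (0.993), while Ciart, Tef and Nr1d2 had r of -0.97, -0.94 and -0.92 with it. These are descriptions over 6 points that share libraries, and the highest of 12023 values.

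Sums of cell type markers were also compared between the libraries. Over all tested genes, the quasi-likelihood test called 4.38% higher and 2.09% lower. The exact test called 7.76% higher and 7.15% lower, and DESeq2 9.5% and 7.61%. The summed level of 8 suprabasal keratinocyte markers was 20174 to 24699 CPM in WT and 31065 to 47075 in KO, highest in KO1 and lowest in WT3, with 7 of 8 fold changes positive and 1 called (Ivl), or 4 by the exact test and by DESeq2. All 11 skeletal muscle markers had negative fold changes, 2 of them called (Tnnt3 and Tnni2), or 9 by the exact test and 8 by DESeq2, and their sum was 12907 to 16478 CPM in WT and 6336 to 10142 in KO, with WT2 the lowest of WT and KO3 the highest of KO. All 9 hair follicle markers were negative as well, with 1 called (Hoxc13), or 2 by the exact test and 4 by DESeq2, and sums of 8040 to 10247 CPM in WT and 5523 to 6994 in KO, whereas 6 basal keratinocyte markers summed to 10604 to 11535 and 10003 to 11840 CPM with 0 called (unadjusted p under 0.05 in 2, DESeq2 1 higher, the exact test 0). The part of this makeup in the levels of Clock, Arntl2 and the other clock genes was not tested, and in whole tissue fewer cells of a type and less RNA per cell cannot be told apart.

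All 6 fibroblast markers had negative fold changes, with a median of -0.51 and 0 called, and their sum was 6341 to 8307 CPM in WT, 2724 in KO1, 3484 in KO2 and 6650 in KO3. This sum was lowest in the libraries in which Clock and Arntl2 were highest, and its part in those levels was not tested. Of the other marker lists, 1 of 5 adipocyte markers was called lower (Fabp4, all 5 negative), or 2 by the exact test and by DESeq2, and 0 were called among 6 fibroblast, 4 macrophage, 4 endothelial and 3 tested T cell markers, by the quasi-likelihood test, the exact test and DESeq2 alike (unadjusted p under 0.05 in 1, an endothelial marker). Among 12 genes that respond to glucocorticoids, 2 were called lower, Zbtb16 and Pdk4. The exact test called 5 lower and 1 higher, DESeq2 4 lower and 1 higher, and limma-voom 0 (unadjusted p under 0.05 in 6 lower and 1 higher). Over all tested genes, the quasi-likelihood test called 2.09% lower, the exact test 7.15% and DESeq2 7.61%. An unadjusted p under 0.05 was found for 4439 of all 15009 tested genes, in either direction. Zbtb16 had 24.6, 55.9 and 15.8 CPM in WT1, WT2 and WT3 and 9.14, 8.60 and 9.86 in KO1, KO2 and KO3 (log2 fold change -1.80, adjusted p = 0.0442), and Pdk4 167, 39.8 and 133 against 26.1, 18.5 and 36.4 (-2.07, adjusted p = 0.0463). Zbtb16 was highest in WT2, as Per1 was, and among WT so were Tsc22d3, Fkbp5, Klf9, Sgk1, Ddit4, Errfi1 and Dusp1. Pdk4, Mt1, Mt2 and Cdkn1a were lowest there among WT. In KO, where Per1 was highest in KO1, only Sgk1, Errfi1 and Dusp1 of the list were also highest in KO1. Zbtb16, Klf9, Tsc22d3 and Pdk4 stand in gene lists that the study drew from these same samples. Of 10 immediate early genes 0 were called by the quasi-likelihood and exact tests and 1 lower by DESeq2 (unadjusted p under 0.05 in 1 higher and 1 lower). Fosb, at 20.9 CPM in WT2 and 23.4 in KO1 against 1.67 to 6.12 in the other libraries, was high in the libraries with high Per1. Nr4a1 (26.3 CPM in WT2 and 32.2 in KO1) and Atf3 (10.9 and 20.8 CPM) were also highest in WT2 and KO1 within their groups. The list as a whole did not share this pattern: Jun, Junb, Egr1, Egr3 and Ier2 were each lowest in WT2 among the WT libraries. Of these, Jun, Egr1 and Ier2 were highest in KO1 among the KO libraries. Fos, at 59.1 CPM in KO1, was 16.5 in WT2 against 15.03 in WT1 and 13.7 in WT3. Fosb, Nr4a1 and Atf3 were named after their values were seen. The part of either response in the Per1 levels was not tested.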

How the data were processed

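Top lip RNA was sequenced as paired-end mRNA libraries, 1 from each mouse. Alignment was to GRCm38, and the submitters' processing notes name TopHat2 2.0.8, Bowtie2 2.1.0 and HTSeq. The authors deposited whole-number counts for each gene symbol, without normalization. The strand setting is not stated, and 0 columns were left unused. Counts were analysed with R 4.3.3 and edgeR 4.0.16: a minimum of 1 CPM in 3 or more libraries, TMM factors, glmQLFit (legacy=FALSE) and glmQLFTest over all tested genes, with Benjamini-Hochberg adjustment and a threshold of 0.05. SE was the size of the log2 fold change divided by the square root of F. Log2 CPM used a prior count of 2.

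The alternatives were edgeR's exact test, DESeq2 1.42.0, limma-voom (limma 3.58.1), the older quasi-likelihood fit, scaling by upper quartile, by library size alone or by DESeq2's size factors, no filter, at least 10 counts in every library, a replicate block, a removed length trend (lowess span 0.3), an adjusted p under 0.1, and each library left out. The fit was tested on simulated data with 200 changed genes. Positions and overlaps came from GENCODE M21, and promoters from RefSeq, where 9 of 10 core genes and 16 of 21 others matched. Named were all core genes, called genes of the wider list, Cry2, Nr1d2, Tef, Hlf, Ciart and Nfil3 regardless of call, Gtf2ird1, the 3 genes most like Dbp and Arntl, and examples of the glucocorticoid and immediate early lists. Bhlhe41, Rora, Rorb, Fbxl21, the overlapping neighbours and the glucocorticoid genes other than Zbtb16 and Pdk4 were named after their values were seen. A gene of the wider list is not reported here, and the counts leave it out. The genes, lists and tests were chosen with earlier results of these data known.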

Additional observations from a re-analysis of the deposited data

How the results depend on the processing

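The number of core clock genes called higher, 1, became 2 with edgeR's exact test, with DESeq2, without the filter, with the length trend removed and at an adjusted p under 0.1, the second gene being Arntl2, and 0 with limma-voom; leaving out 1 library gave 0 to 2, with 2 only without KO3. In the wider list, 0 to 2 genes were called higher when a library was left out. The 0 called lower there became 2 with the exact test, 3 with DESeq2, 1 with the length trend removed and 3 at an adjusted p under 0.1, and 0 to 1 when a library was left out, with 1 only without KO3. The sign changed for Arntl without the filter (0.026) and for Nr1d1 with upper-quartile scaling (-0.0473). With a library left out, the log2 fold change ran from -0.48 to 0.28 for Arntl, -1.01 to 0.52 for Per1, -2.22 to 0.79 for Per2, -0.79 to 0.71 for Per3, -0.24 to 0.35 for Nr1d1 and -0.41 to 0.31 for Dbp. The positive values of Per2 and Per3 came without WT2 alone, and all 3 Per genes and Dbp were positive without WT2. Npas2 stayed negative, between -1.70 and -0.34, and Cry1 between -1.12 and -0.29. The cause was not tested. Among the fold changes of core genes under the other alternatives, 101 kept their direction and side of the threshold, 5 newly passed it, 2 no longer did and 2 changed sign. KO3 also decided the counts over all genes, with 2496 higher and 2395 lower of 14802 tested without it. This was 33%, against 6.47% with all 6 libraries.

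With a replicate block the log2 fold change of Clock was 1.12 (adjusted p = 0.0677) and that of Arntl2 1.196 (adjusted p = 0.0364), so that 1 core gene was called higher and 0 genes of the wider list lower, and the night group exceeded the day group by 0.32. Libraries of the same number did not deviate together in all cases (r across genes of -0.19, 0.29 and 0.31 for numbers 1, 2 and 3), and WT2 correlated best with KO1 (0.41), so the numbers were not taken as pairs. With 3 libraries a genotype an exact permutation test cannot go below p = 0.1. The lowest level of a core clock gene was 2.45 CPM, from 48 counts of Npas2 in KO1.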
